A study of Mus musculus with 5 samples.

Results

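The Notch pathway genes described here are 3 receptors (Notch1, Notch2, Notch3), 2 ligands (Dll1, Jag1), 4 transcriptional effectors (Hes1, Hes5, Hey1, Hey2) and the fringe glycosyltransferase Lfng. They were chosen by symbol, with earlier results of these data known. All 10 were found among the 34590 gene symbols of the count files and passed the filter on low counts. The study compared the medial cortex (3 libraries) with the lateral cortex (2 libraries) of wild-type mouse embryos of a mixed strain background at E14.5, a midgestation stage of cortical neurogenesis. The tissue was untreated and dissected, and RNA sequencing libraries were made from polyadenylated RNA without strand information. Whether each library is from its own embryo is not stated in the labels. The p-values therefore reflect library-to-library spread, which may be technical.

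Notch is a receptor of the cell surface that is cut after it binds a ligand on a neighbouring cell. The released part enters the nucleus, joins the DNA-binding protein Rbpj and a Mastermind co-activator, and turns on Hes and Hey genes, whose products repress the proneural genes that start neuronal differentiation. In the embryonic cortex this signal is known to keep radial glia, the progenitors that line the ventricle, from differentiating, while young neurons and intermediate progenitors present the ligand Dll1.

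Gene counts came to between 27406370 and 36460274 reads in medial libraries and between 56147129 and 66981952 in lateral libraries, which were thus all deeper. A member had between 172 and 16919 reads in a library, and counting error was at most 7.63% of any value. All 8 listed genes of the dorsal telencephalon were read in every library, with Emx1, a factor of cortical progenitors, between 68.4 and 116 CPM. Medial library 1 stood apart: 13 listed hem genes (the hem is a source of Wnt signals bordering the cortex medially) summed to 430 CPM in it, to 175 and 150 CPM in medial libraries 2 and 3, and to 37.6 and 41.9 CPM in the lateral libraries. Levels below are in CPM, reads of a gene scaled to library size, after TMM scaling, fold changes are medial over lateral, and SE is the standard error of a log2 fold change.

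Hey2, Lfng, Hes1 and Notch1 rose in medial cortex, and 0 of the 10 members fell, also at an unadjusted p under 0.05 in edgeR or by DESeq2. The largest difference was in Hey2, which averaged 31.1 ± 2.41 CPM in medial libraries (SD, n = 3) and 4.81 ± 2.29 CPM in lateral libraries (SD, n = 2), a 6.42-fold difference. Lfng was 2.48-fold, Hes1 2.07-fold and Notch1 1.61-fold higher. The threshold was an adjusted p of 0.05 over the 16229 genes tested with edgeR's quasi-likelihood test, and 4.62% of those genes were called higher. Because the members were chosen with earlier results of these data known, their values are set beside those of all genes as a description only. The members' median log2 fold change was 0.76, beside 0.012 over all genes tested, and all 10 values were positive. In 6 of the 10 (Notch1, Notch2, Hes1, Hes5, Hey2, Lfng) every medial library was above every lateral library, while 26.5% of all genes tested separated in that direction and 26.7% in the opposite one. DESeq2 called 6 members higher, beside 10.7% of all genes, and it called 1790 of the 16229 genes lower. In edgeR 5231 of the 16229 genes had an unadjusted p under 0.05 in either direction. These are the backgrounds for the counts given for gene lists below.

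**Figure D1:**
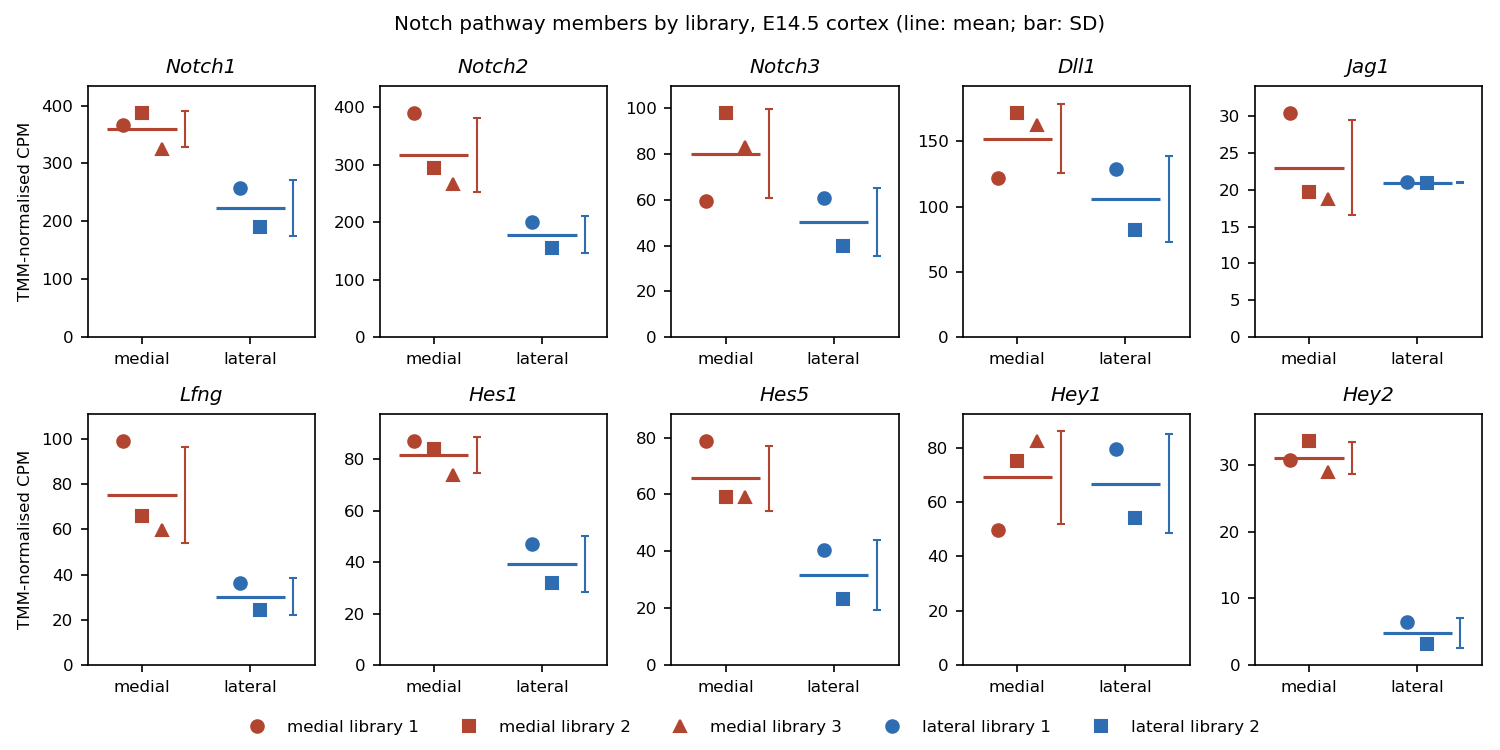
TMM-normalised CPM (y axis, from 0, its own scale in each panel) of the 10 Notch pathway members, with medial libraries on the left and lateral libraries on the right. Points are libraries, horizontal lines are group means and bars are SD (n = 3 medial, n = 2 lateral). The groups do not overlap in Notch1, Notch2, Lfng, Hes1, Hes5 and Hey2, and they overlap in Notch3, Dll1, Jag1 and Hey1.

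Promoter windows from RefSeq on GRCm38.p6, from 250 bases before to 50 bases after the annotated start, were in the table used here for 8 of the 10 members. Dll1 has more than 1 start there. Windows of Hes1 and Hey1 were missing from it and were not searched. The windows of 3 of these 8, Hes5, Hey2 and Lfng, held TGGGAA, the core of the sequence bound by Rbpj, and each held it at 2 places. The motif was searched on both strands, so that it reads TTCCCA on the reverse one. These 3 windows are shown because they held the motif. Medial and lateral libraries did not overlap in these 3 members. They did not overlap in Notch1 and Notch2 either, whose windows held 0 matches. Capitals mark TGGGAA or TTCCCA, and each line runs 5′ to 3′ along the gene.
Hes5, chr4:154960673-154960972, plus strand: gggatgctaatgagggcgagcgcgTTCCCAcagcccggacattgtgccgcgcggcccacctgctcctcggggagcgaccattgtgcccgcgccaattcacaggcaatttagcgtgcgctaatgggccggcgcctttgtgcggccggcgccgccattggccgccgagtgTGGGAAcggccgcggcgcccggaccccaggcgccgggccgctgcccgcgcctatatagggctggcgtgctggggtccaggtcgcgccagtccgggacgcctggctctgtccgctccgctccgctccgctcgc
Hey2, chr10:30842734-30843033, minus strand: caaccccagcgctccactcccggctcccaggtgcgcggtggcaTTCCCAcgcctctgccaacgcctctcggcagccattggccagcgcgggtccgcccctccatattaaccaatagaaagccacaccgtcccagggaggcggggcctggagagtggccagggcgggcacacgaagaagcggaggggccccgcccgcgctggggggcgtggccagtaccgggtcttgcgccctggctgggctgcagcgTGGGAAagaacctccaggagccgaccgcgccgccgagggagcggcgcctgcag
Lfng, chr5:140607091-140607390, plus strand: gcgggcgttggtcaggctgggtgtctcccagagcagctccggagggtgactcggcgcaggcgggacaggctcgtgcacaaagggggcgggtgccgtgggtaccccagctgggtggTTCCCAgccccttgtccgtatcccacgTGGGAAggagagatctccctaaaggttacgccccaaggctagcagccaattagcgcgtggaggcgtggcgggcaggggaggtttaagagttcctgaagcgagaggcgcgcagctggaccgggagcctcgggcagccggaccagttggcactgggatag

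The first base of these matches lay at −226 and −82 relative to the start in Hes5, at −207 and −3 in Hey2, and at −135 and −108 in Lfng. In each gene the match farther from the start was on the reverse strand and the nearer one on the forward strand. The longer form GTGGGAA, which contains TGGGAA, was present at both places in Hes5 and Hey2 and at 1 place in Lfng. Of 32851 promoter windows of 300 bases in the same table, 25.6% held TGGGAA, 3.79% held it at 2 or more places and 6.38% held GTGGGAA. The E-box CACGTG, a kind of site that Hes and Hey proteins can bind, was in the Lfng window alone among these 8 members, and in 7.15% of all windows. In Lfng it overlapped the nearer TGGGAA match. The N-box CACNAG was in the windows of Notch1, Notch2, Notch3, Dll1 and Lfng and in 42.5% of all windows. A match is a description of letters, and binding was not measured.

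Notch1 rose and Notch2 and Notch3, the other receptors measured here, did not pass the threshold. Notch1, the main receptor of radial glia, had 366, 387 and 325 CPM in medial libraries 1 to 3, against 257 and 189 CPM in lateral libraries 1 and 2. The lowest medial value was 1.26-fold above the highest lateral one, and the log2 fold change was 0.69 (SE 0.15, adjusted p = 0.048). Notch2, a receptor also found in radial glia, had 390, 295 and 267 CPM in medial libraries, against 201 and 155 CPM in lateral ones. Its groups did not overlap either, and its log2 fold change of 0.83 (SE 0.20) missed the threshold with an adjusted p of 0.0522. Without medial library 1, its highest library, the log2 fold change of Notch2 was 0.66 and passed (adjusted p = 0.0375), while that of Notch1 was 0.67 and did not (adjusted p = 0.0537). Both receptors therefore lay close to the threshold on opposite sides, and which of them passed turned on 1 library.

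Notch3, a receptor known both in progenitors and in the pericytes of vessels, had 59.4, 98.0 and 83.0 CPM in medial libraries, against 60.8 and 40.0 CPM in lateral ones. Medial library 1 lay just below lateral library 1 and the other medial libraries lay above both lateral ones (log2 fold change 0.67, SE 0.26, adjusted p = 0.143). Listed genes of pericytes and other mural cells summed to between 54.7 and 72.8 CPM in medial and between 73.5 and 102 CPM in lateral libraries. Of the 10 of them tested, 0 passed in edgeR, 4 were lower at an unadjusted p under 0.05, DESeq2 called 1 lower, 3 had positive log2 fold changes, and their part in the Notch3 value was not tested. In bulk tissue, a change in the number of cells of a type cannot be told apart from a change in RNA per cell, here and below.

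Neither ligand passed the threshold with all libraries, in edgeR or in DESeq2. Dll1, the ligand of differentiating cells, had 122, 172 and 163 CPM in medial libraries, against 129 and 82.3 CPM in lateral ones. The groups overlapped through medial library 1, and the log2 fold change was 0.53 (SE 0.23, adjusted p = 0.179). DESeq2 called Dll1 without medial library 1 (adjusted p = 0.010) and without lateral library 1 (adjusted p = 0.0065), and edgeR did with a block by a tag that pairs of libraries share in the deposited names (0.70, adjusted p = 0.000527). The same block, in which medial library 1 has no partner, also brought Notch2, Notch3 and Hes5 past the threshold. Over all 16229 genes, that fit called 2633 higher, where the main fit called 750. A fit with a block leaves fewer residual degrees of freedom than the main fit. Jag1, a ligand of many developing tissues and of vessel walls, had 30.4, 19.8 and 18.8 CPM in medial libraries, against 21.0 and 20.9 CPM in lateral ones. Medial library 1 held the highest value and the remaining medial libraries the lowest, so that the log2 fold change was 0.13 (SE 0.22, adjusted p = 0.725) with all libraries and −0.12 (adjusted p = 0.468) without medial library 1.

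Lfng adds sugar to Notch and thereby changes its response to Delta and Jagged ligands. It had 99.3, 66.0 and 59.9 CPM in medial libraries, against 36.1 and 24.5 CPM in lateral ones. Every medial library was at least 1.66-fold above every lateral one, and the log2 fold change was 1.31 (SE 0.28, adjusted p = 0.044). Medial library 1 was the highest, and without it the log2 fold change was 1.05 (adjusted p = 0.0288). The related fringe genes Mfng and Rfng, named after their values were seen, did not pass, with log2 fold changes of −0.10 (SE 0.12, adjusted p = 0.597) and −0.41 (SE 0.11, adjusted p = 0.069). Differences among the 3 fringe genes were not tested.

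Hes1 rose, and Hes5 had nearly the same log2 fold change without passing the threshold. Hes1, a repressor of proneural genes that is also active outside Notch signalling, had 87.3, 84.2 and 73.8 CPM in medial libraries, against 47.1 and 31.7 CPM in lateral ones. The groups were separated by 1.57-fold, and the log2 fold change was 1.05 (SE 0.18, adjusted p = 0.0339). Hes5, the effector most closely tied to Notch in cortical progenitors, whose promoter window is shown above, had 78.9, 59.2 and 58.9 CPM in medial libraries, against 40.5 and 23.1 CPM in lateral ones. Its groups did not overlap, and its log2 fold change of 1.05 (SE 0.27) had an adjusted p of 0.0584. Lateral library 1 held 1.76-fold more Hes5 than lateral library 2, a spread that was 1.49-fold for Hes1. The log2 ratio of Hes1 to Hes5 within a library was 0.15, 0.51 and 0.33 in medial libraries and 0.22 and 0.46 in lateral ones. The means were 0.33 ± 0.18 in medial and 0.34 ± 0.17 in lateral libraries (SD), closer than the spread between libraries (exact two-sided permutation test, p = 0.9, and 0.9 adjusted over the 3 ratios tested). In GENCODE M21, an annotation of GRCm38 and not of the authors' build mm9, exons of the antisense gene Gm20421 cover 34% of the exon bases of Hes5, and Gm20421 itself had at most 8 reads in any library. Reads of the 2 genes cannot be told apart there. Other annotated genes overlap 17.4% of the exon bases of Dll1 (A930024N18Rik, at most 135 reads), 10.2% of those of Notch1 (0610009E02Rik, at most 32 reads), 6.09% in Notch3 and 5.15% in Notch2.

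Of the related repressors, Hey2 rose and Hey1 did not pass the threshold. Hey2, a Hey factor well known in the heart and in vessels, had 30.8, 33.7 and 28.9 CPM in medial libraries, against 6.43 and 3.19 CPM in lateral ones. The lowest medial library was 4.50-fold above the highest lateral one, and the log2 fold change was 2.68 (SE 0.30, adjusted p = 0.0255). The value was 2.69 without medial library 1 (adjusted p = 0.0173). In lateral library 2, Hey2 rested on 172 reads, the fewest of any member. Hey1, an effector known in the developing forebrain and in vessels, had 49.8, 75.0 and 82.6 CPM in medial libraries, against 79.5 and 53.9 CPM in lateral ones. Each group held a low and a high library, and the log2 fold change was 0.051 (SE 0.26, adjusted p = 0.912). The log2 ratio of Hey2 to Hey1 within a library was −0.69, −1.15 and −1.51 in medial libraries and −3.62 and −4.06 in lateral ones. It was higher by 2.72 in medial cortex, with no overlap between the groups. The exact two-sided permutation test gave p = 0.1, the smallest that 3 against 2 libraries allow, and p = 0.15 adjusted over the 3 ratios. Both Hey genes are also known from vessels, and 12 listed endothelial genes were tested. Of these, 1 fell in edgeR, the cadherin gene Cdh5, where 5.1% of all genes tested were called lower. At an unadjusted p under 0.05, 8 were lower, DESeq2 called 7 lower, and 0 were higher by any of these. All 12 log2 fold changes were negative, and the genes summed to between 109 and 123 CPM in medial and between 143 and 161 CPM in lateral libraries.

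Some markers of other cell types and regions passed as well. Of 11 tested radial glia genes that are not members, 1 rose in edgeR, where 4.62% of all genes did, 7 were higher at an unadjusted p under 0.05 and DESeq2 called 5 higher. The 1 was Nes, an intermediate filament of neural progenitors (log2 fold change 0.62, SE 0.12, adjusted p = 0.0379). All 11 values were positive with a median of 0.57, and the list summed to between 3420 and 4156 CPM in medial and between 2411 and 2773 CPM in lateral libraries. Of 11 pan-neuronal genes tested, 4 fell in edgeR, where 5.1% of all genes did, 10 were lower at an unadjusted p under 0.05 and DESeq2 called 10 lower, with 0 higher by any of these. The list summed to between 1420 and 2393 CPM in medial and between 3306 and 4372 CPM in lateral libraries, with a median log2 fold change of −0.88. In edgeR the call of Nes was lost when any library other than medial library 1 was left out. The 4 neuronal calls were lost without medial library 2 or either lateral library, and Syt1 alone was called without medial library 3. Over the 5 fits with a library left out the median log2 fold change stayed between 0.39 and 0.63 for radial glia genes and between −1.11 and −0.63 for neuronal genes. DESeq2 called Nes in each of the 5, and it called 10 neuronal genes in each but the fit without lateral library 2, where it called 1.

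Of 8 genes of GABAergic neurons, which arise in the ventral forebrain, 7 fell, with a median log2 fold change of −3.16. They summed to 3.99, 2.24 and 11.01 CPM in medial libraries, against 43.8 and 65.9 CPM in lateral ones. Of the 13 hem genes, 10 rose, with a median log2 fold change of 5.31. In edgeR without medial library 2 or lateral library 2, 0 genes of either list were called, where DESeq2 called 7 and 3 GABAergic genes and 12 and 11 hem genes. Without lateral library 1, edgeR called 0 GABAergic genes and 1 hem gene, and DESeq2 called 6 and 11. The part of these 4 lists in the members' values was not tested beyond the following ratio to radial glia genes. The mean log2 CPM of the 11 radial glia genes was higher by 0.46 in medial cortex, and each member was set against that mean in the same library.

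Hes1 stood at −1.47, −1.42 and −1.51 log2 units relative to the radial glia mean in medial libraries, against −1.92 and −2.24 in lateral ones. The difference was 0.61 with no overlap, and the exact two-sided permutation test gave p = 0.1, the smallest possible, and p = 0.15 adjusted over the 3 ratios. Against Sox2 alone, a factor of neural progenitors, the difference for Hes1 was 0.44 (exact two-sided permutation test, p = 0.2, not adjusted). For the other members the difference from the radial glia mean is a description: 2.30 for Hey2, 0.84 for Lfng, 0.63 for Hes5, 0.36 for Notch2 and 0.24 for Notch1, each with no overlap between the groups. The share of all genes that separate on this ratio was not computed, and on plain CPM 26.5% separated with medial higher. The groups overlapped for Notch3 (0.21), Dll1 (0.084), Jag1 (−0.36) and Hey1 (−0.42). Against Sox2 the difference was 2.12 for Hey2, 0.66 for Lfng, 0.45 for Hes5 and 0.18 for Notch2, and 0.058 for Notch1 and 0.029 for Notch3. It was negative for Dll1 (−0.094), Jag1 (−0.54) and Hey1 (−0.60). The 4 largest of these differences from the radial glia mean were in Hey2, Lfng, Hes5 and Hes1.

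**Figure D2:**
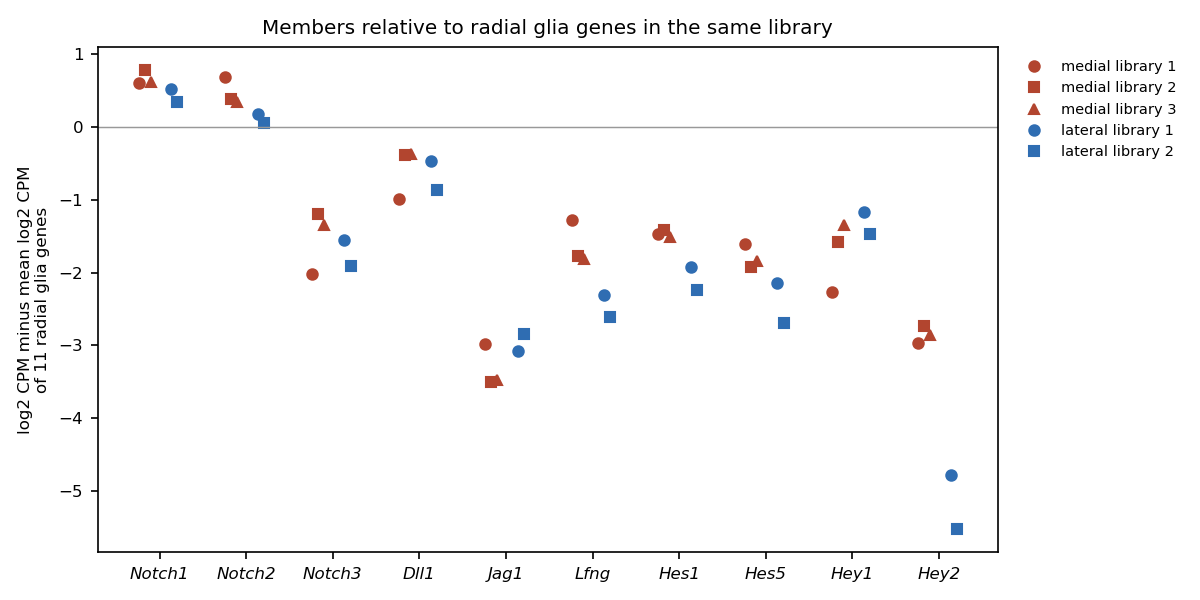
Log2 CPM of each member minus the mean log2 CPM of 11 radial glia genes in the same library (y axis), for medial libraries (left in each pair) and lateral libraries (right). Points are libraries. Hey2 lies near −2.86 in medial libraries and at −4.79 and −5.53 in lateral ones, while Notch1 lies between 0.34 and 0.78 in all 5 libraries.

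Levels were compared between members only per kilobase of exon, with exon lengths from GENCODE M21. These lengths include bases shared with exons of other genes, among them 34% in Hes5 and 17.4% in Dll1. How reads over shared bases were counted is not stated, and its effect on the order below was not tested. Hes1 (55.7 ± 4.80 CPM per kb), Hes5 (51.6 ± 9.01), Dll1 (42.5 ± 7.44) and Notch1 (37.9 ± 3.34; SD, n = 3 each) had the highest levels per kilobase in medial cortex. Neighbours in that order overlapped in their library values. Lfng, Notch2 and Hey1 followed at 32.6 ± 9.20, 30.2 ± 6.15 and 28.5 ± 7.07 CPM per kb, and overlapped each other. Lfng and Notch2 also overlapped Notch1, while every library of Hey1 (20.6, 31.0 and 34.1) lay below the lowest Notch1 value (34.2). Hey2 had 12.2 ± 0.945, Notch3 9.996 ± 2.42 and Jag1 4.10 ± 1.15 CPM per kb. Hey2 lay below every library of Hey1, overlapped Notch3, and Jag1 was below all the others. In lateral cortex the top of the order was Dll1 (29.5 ± 9.20), Hey1 (27.5 ± 7.48), Hes1 (26.8 ± 7.41), Hes5 (25.0 ± 9.67) and Notch1 (23.5 ± 5.05; SD, n = 2 each), levels per kilobase that overlapped each other. Notch2 (16.96 ± 3.10), Lfng (13.1 ± 3.56), Notch3 (6.29 ± 1.84) and Jag1 (3.73 ± 0.0151) came next. Hey2 was last in lateral cortex with 1.89 ± 0.898 CPM per kb, below both library values of Jag1.

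Other genes of the pathway were called about as often as genes in general. Of 45 other listed Notch pathway genes 42 were tested, and 2 rose and 2 fell, near the 4.62% and 5.1% of all genes called higher and lower. Their median log2 fold change was −0.030, with 19 positive values. Dtx4, a ubiquitin ligase that acts on Notch, had 94.0, 120 and 90.6 CPM in medial libraries, against 38.7 and 31.4 CPM in lateral ones (log2 fold change 1.53, SE 0.16, adjusted p = 0.0255). Maml2, a Mastermind co-activator of the Notch complex, had 27.1, 25.5 and 19.4 CPM in medial libraries, against 13.3 and 14.54 CPM in lateral ones (0.79, SE 0.17, adjusted p = 0.0455). Both separated the regions completely. Dner, a Notch ligand-like protein of neurons, fell to 22.7, 20.8 and 25.6 CPM in medial libraries, against 51.6 and 95.7 CPM in lateral ones (−1.67, SE 0.26, adjusted p = 0.0315). Numbl, a relative of the Notch inhibitor Numb, fell to 47.7, 46.9 and 54.8 CPM in medial libraries, against 84.8 and 80.6 CPM in lateral ones (−0.73, SE 0.096, adjusted p = 0.0296). Without medial library 3, Dtx4, Maml2 and Numbl passed and Dner did not, and without lateral library 1 Dner alone of the 4 did.

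By role, 1 of 7 other receptors and ligands (Dner) fell in edgeR, 3 were lower at an unadjusted p under 0.05, DESeq2 called 2 lower, and 0 were higher by any of these. Of 17 genes for glycosylation, ligand endocytosis and receptor cleavage 0 passed in edgeR, with 3 higher and 4 lower at an unadjusted p under 0.05. Over all genes 5231 of 16229 had such a p in either direction. DESeq2 called 1 higher and 4 lower, and edgeR called 1 lower without medial library 1. Mib1, the ubiquitin ligase that activates ligands, had 496, 428 and 375 CPM in medial libraries, against 350 and 304 CPM in lateral ones (log2 fold change 0.40, SE 0.14, adjusted p = 0.111). Adam10, a protease that cuts ligand-bound Notch, had 105, 115 and 122 CPM in medial libraries, against 114 and 121 CPM in lateral ones (−0.045, SE 0.088, adjusted p = 0.768). Of 16 genes of the nuclear complex and of modulators 2 rose and 1 fell. Rbpj itself, named after its value was seen, had 119, 98.0 and 96.8 CPM in medial libraries, against 105 and 101 CPM in lateral ones (0.023, SE 0.11, adjusted p = 0.907). Neither of the 2 other Hes and Hey genes tested passed. Hes6, which promotes neuronal differentiation, had 82.6, 95.3 and 97.5 CPM in medial libraries, against 95.7 and 77.02 CPM in lateral ones (0.088, SE 0.13, adjusted p = 0.674). Heyl, a Hey factor of vessel walls, had 2.01, 1.54 and 2.42 CPM in medial libraries, against 2.34 and 3.32 CPM in lateral ones (−0.49, SE 0.28, adjusted p = 0.277). Without medial library 1, 4 of the 42 rose and 5 fell in edgeR, beside 6.26% and 6.94% of all genes in that fit. In the same case DESeq2 called 5 higher and 5 lower, beside 1415 and 1626 of 16392 genes. With all libraries DESeq2 called 5 higher and 9 lower, beside 1737 and 1790 of 16229 genes.

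**Figure D3:**
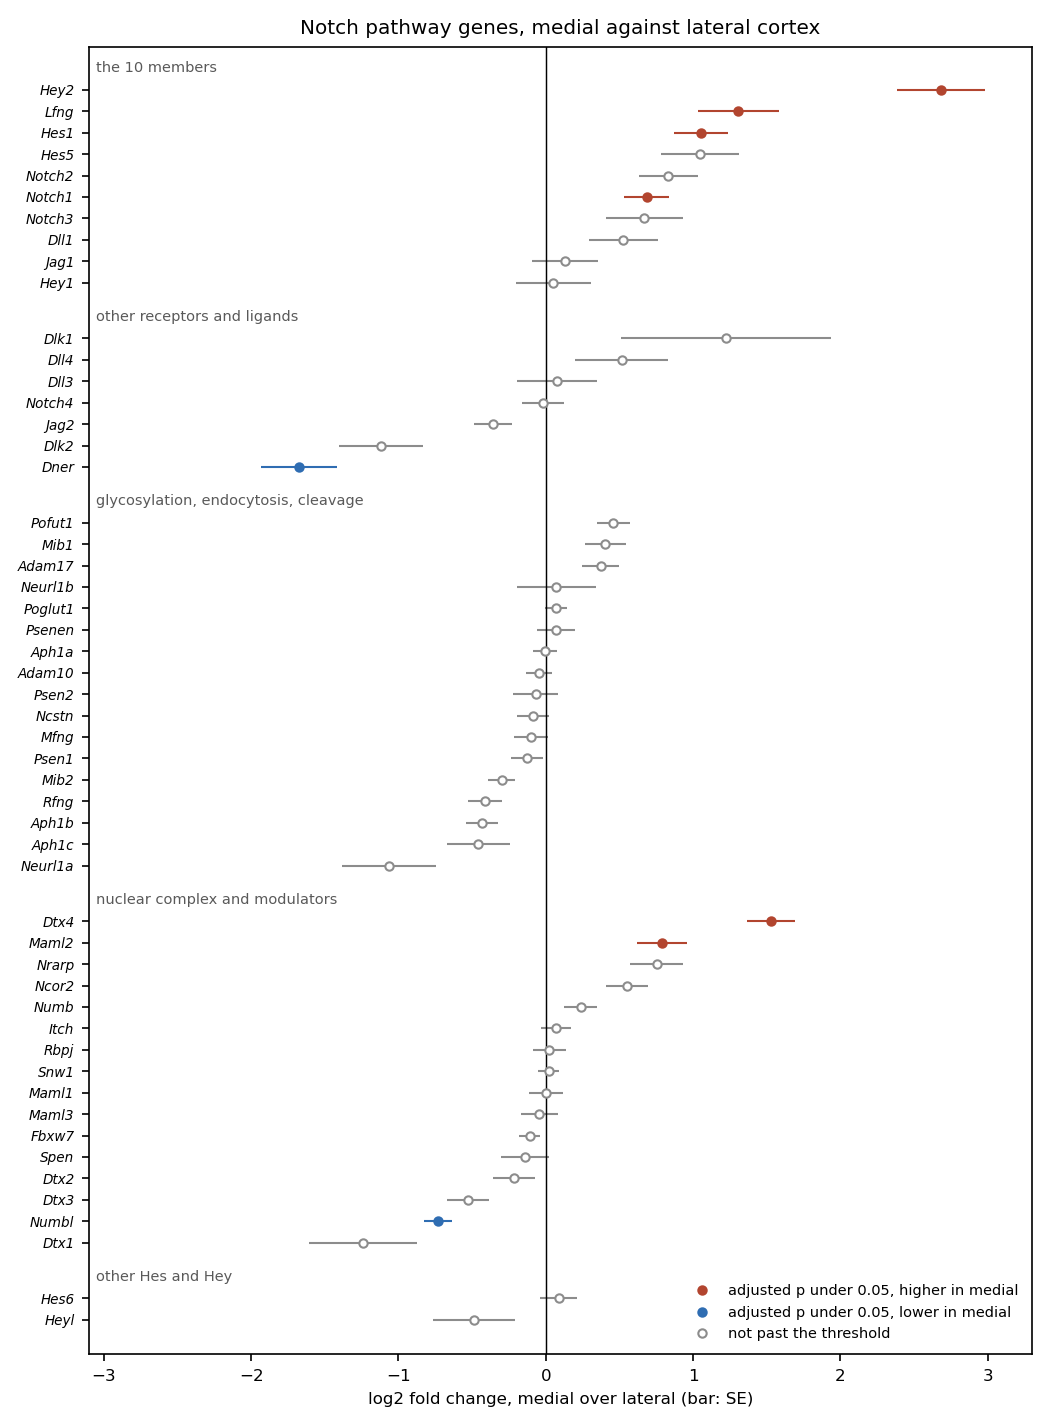
Log2 fold change, medial over lateral (x axis, with SE bars), of the 10 members and the 42 other Notch pathway genes tested, grouped by role. Filled points passed an adjusted p of 0.05. Hey2 at 2.68 lies farthest to the right and Dner at −1.67 farthest to the left.

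Proneural genes, which Hes proteins are known to repress, did not pass. Of 6 tested, 0 rose and 0 fell in edgeR, with 3 higher and 1 lower at an unadjusted p under 0.05. Without medial library 1, 2 rose, and DESeq2 called 3 higher and 1 lower. Neurog2, the main proneural factor of the cortex, had 163, 208 and 251 CPM in medial libraries, against 224 and 178 CPM in lateral ones (log2 fold change 0.043, SE 0.20, adjusted p = 0.902). Insm1, a factor of intermediate progenitors, had 58.2, 63.6 and 91.3 CPM in medial libraries, against 122 and 124 CPM in lateral ones (−0.79, SE 0.19, adjusted p = 0.0544).

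For the 4 members that rose, the 3 genes with the most similar level profile over the 5 libraries were found among 10055 genes with a mean of at least 10 CPM. Likeness was the root mean square difference of log2 CPM after centring each gene on its mean, with 0 for identical profiles. Notch1 was closest to Plekhh1 (0.037), Eml5 (0.041) and 1700017B05Rik (0.041). Hes1 was closest to the chromatin remodeller Chd7 (0.067), the basement membrane proteoglycan Hspg2 (0.069) and the RNA-binding protein gene Zfp36l1 (0.070). Lfng was closest to Lrig1, a regulator of growth factor receptors (0.083), the stress-response factor Nfe2l2 (0.090) and Cdca7l (0.11). Hey2 had no neighbour as close: Slit2, an axon guidance ligand, came first (0.18), then the receptor Tnfrsf19 (0.23) and the factor Eya1 (0.26). Slit2 had 129, 126 and 97.2 CPM in medial libraries, against 25.2 and 15.8 CPM in lateral ones. These likenesses describe 5 libraries and were not tested.

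Within each region the members also varied between libraries. All 10 were higher in lateral library 1 than in lateral library 2, from 1.006-fold for Jag1 to 2.01-fold for Hey2, while 50.2% of all genes tested were. In medial cortex 5 members (Notch2, Jag1, Lfng, Hes1, Hes5) were highest in library 1 and 3 (Notch3, Dll1, Hey1) were lowest in it. In lateral libraries 1 and 2, listed radial glia genes summed to 2773 and 2411 CPM, neuronal genes to 3306 and 4372 CPM and hem genes to 37.6 and 41.9 CPM. The part of these lists in the members' differences between libraries was not tested.

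The calls depended on single libraries. Without medial library 1, 4 members rose (Notch2, Lfng, Hes1, Hey2), and 1 did without medial library 3 or lateral library 1, Hey2 in both cases. Without medial library 2 or lateral library 2, 0 of the 10 and 0 of all genes passed in edgeR. Unadjusted p-values under 0.05 numbered 4036 and 2456 there, and DESeq2 called 6 and 3 members in these cases. Over these 5 fits the log2 fold change ranged from 2.27 to 3.28 for Hey2, from 1.05 to 1.61 for Lfng, from 0.79 to 1.36 for Hes1 and from 0.48 to 0.92 for Notch1. The lowest was without lateral library 2 for each, for Lfng level with the value without medial library 1. The highest was without lateral library 1. For Dll1 it ranged from 0.24 without lateral library 2 to 0.88 without lateral library 1, and for Hey1 from −0.20 to 0.35 in the same 2 fits.

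**Figure D4:**
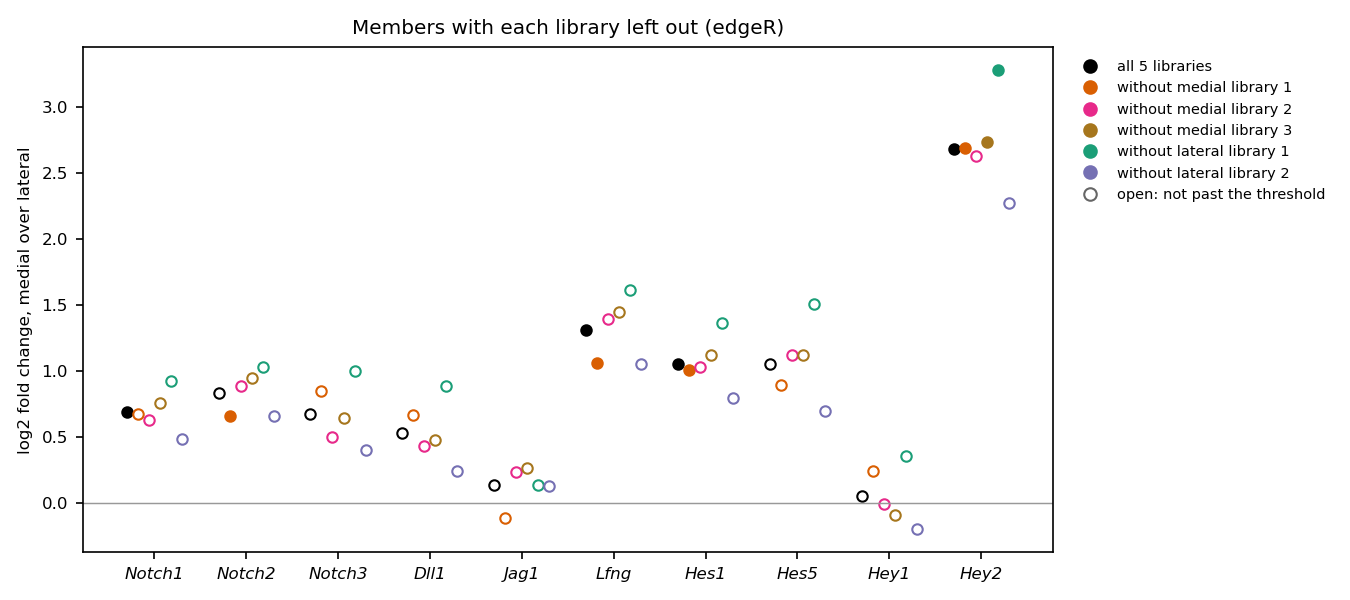
Log2 fold change, medial over lateral (y axis), of each member with all 5 libraries (black) and with each library left out. Filled points passed an adjusted p of 0.05 in edgeR's quasi-likelihood test. Hey2 stays between 2.27 and 3.28, and Jag1 and Hey1 lie on both sides of 0.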

How the data were processed

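RNA was extracted with a column kit and sequenced from unstranded polyA libraries, per the labels' protocols. The deposited files hold raw whole-number counts of reads per gene symbol, with no normalisation by the authors recorded. The submitters' processing notes name BWA, STAR, HTSeq and the build mm9, without versions or roles. Reads that HTSeq assigned to no gene (23.1% to 28.7% of each file) were left out. Counts were kept by filterByExpr (minimum count 10, total 15), scaled by TMM, then compared by the quasi-likelihood test of edgeR 4.0.16 under R 4.3.3 (glmQLFit with legacy off, glmQLFTest), with group as the only term, 3 residual degrees of freedom and Benjamini-Hochberg adjustment over all genes. SE is the log2 fold change over the root of F. Within-library ratios were taken on log2 CPM (prior count 2), with exact permutation over libraries. Alternatives used DESeq2 1.42.0, limma-voom 3.58.1, other scalings and filters, thinning, blocks, a prior count of 0.5 and each library left out. DESeq2 with each library left out was chosen after seeing the data. The members and gene lists were chosen with earlier results of these data known. Text names all members, other pathway genes past the threshold or else the 2 with the highest mean of a role list, and the 3 nearest profiles of each member that passed. Levels of a gene and an overlapping antisense gene cannot be told apart. Counting intervals cover counting error only. Listed symbols Sox1 and Map2 were not analysed here.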

Additional observations from a re-analysis of the deposited data

How the results depend on the processing

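With all libraries, 1577 genes and 4 of the 10 members passed in edgeR. The scaling alternatives, limma-voom, the CPM filter and thinning each gave 4 members, no filter on low counts gave 3 (Notch1 did not pass, adjusted p = 0.0663) and DESeq2 gave 6 members and 3527 genes. Leaving out 1 medial library gave from 0 to 2163 genes and from 0 to 4 members in edgeR, and leaving out 1 lateral library from 0 to 18 genes and from 0 to 1 member. In DESeq2 the counts were 3041, 2006 and 3108 genes without medial libraries 1, 2 and 3 and 2172 and 664 without lateral libraries 1 and 2, with from 3 to 8 members. The causes were not tested. No label says that the replicate numbers pair libraries. Deviations from the group mean correlated over genes at 0.027 for the libraries numbered 1 and at −0.39 for those numbered 2. With the replicate block 5 members and 1076 genes passed. Libraries that share a tag in the deposited names, which joins other numbers, correlated at 0.39 and 0.38. With only 2 lateral libraries, their deviations from the group mean are equal and opposite. The −0.39 and the 0.39, both of medial library 2, are therefore 1 value with its sign turned and not separate evidence. With a block by that tag 8 members and 5364 genes passed, Jag1 and Hey1 being the members that did not. Both block fits left fewer residual degrees of freedom than the 3 of the main fit. A medial library without a partner in its block does not enter their comparison of regions.

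The difference in the log2 ratio of Hes1 to Hes5 ranged from −0.13 to 0.11 with 1 library left out (0.077 without medial library 1 and 0.11 without lateral library 2, so it changed sign), while those of Hey2 to Hey1 and of Hes1 to radial glia genes kept theirs in all alternatives run. Among named genes, Hey2, Lfng, Hes1, Hes5, Notch1, Notch2, Notch3, Dll1, Dner, Dtx4, Maml2, Numbl, Mib1, Heyl and Insm1 kept their sign under all 20 alternatives. Small log2 fold changes turned. With 1 library left out Jag1 ranged from −0.12 to 0.26, Hey1 from −0.20 (−0.21 in DESeq2) to 0.35 (and at −0.011 without medial library 2 and −0.095 without medial library 3 in DESeq2), Adam10 from −0.094 to 0.010, Hes6 from −0.066 (−0.062 in edgeR) to 0.25 and Neurog2 from −0.12 to 0.21. Under the replicate block Hey1 was at −0.098 and Neurog2 at −0.12, under the block by tag Jag1 was at −0.12 and Adam10 at 0.0091, and with library size alone Adam10 was at 0.025. Depth limits Hey2 most, at 172 reads in lateral library 2.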

Other observations

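Hes2, Hes3 and Hes7 did not pass the filter on low counts: Hes2 had 2, 2 and 4 reads in medial libraries and 1 and 0 in lateral ones, Hes3 had 0 in each medial library and 1 in each lateral one, and Hes7 had 1, 1 and 5 in medial and 2 and 4 in lateral libraries. These counts are at or near the floor of 3 reads, and the floor amounted to between 0.0834 and 0.105 CPM in medial libraries and between 0.0456 and 0.0557 CPM in lateral ones. Dlk1, a noncanonical Notch ligand chosen here after its values were seen, had 8.95 CPM in medial library 1 and 1.99 and 2.20 CPM in medial libraries 2 and 3, against 1.55 and 2.17 CPM in lateral libraries (log2 fold change 1.23, SE 0.71, adjusted p = 0.288). Dtx1, also chosen after its values were seen, ran against its relative Dtx4, with 19.2, 36.9 and 49.4 CPM in medial libraries and 71.3 and 95.03 CPM in lateral ones (−1.24, SE 0.37, adjusted p = 0.0789). The difference between the 2 genes was not tested.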
